A study of Mus musculus with 5 samples.

Results

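RNA abundance of 10 genes of the blood vessel wall and its main growth factor was examined in brown adipose tissue (BAT) of cold-exposed mice. Of these, 9 are endothelial genes (Kdr, Flt1, Tek, Tie1, Eng, Pecam1, Cdh5, Emcn and Vwf) and the other is Vegfa, and the 10 were taken by name from the 52022 genes to which the measured transcripts belong. The study removed Atf4, which encodes a transcription factor of the integrated stress response, from thermogenic fat cells and sequenced BAT after cold. The ATF4 BKO group (n = 3 mice) carried floxed Atf4 alleles (ATF4 fl/fl) and a transgene expressing Cre recombinase from the Ucp1 promoter, and the WT group (n = 2) were littermate controls with the same floxed alleles and no Cre. The deletion was therefore directed at UCP1-expressing adipocytes and not at endothelial cells, and whole-tissue RNA does not show in which cells Atf4 was lost. All 5 mice were on the C57Bl/6J background, labelled male, between 10 and 12 weeks old and fed ad libitum. All 5 had spent 3 days at 4 °C after housing at thermoneutrality (30 °C), so no group without cold was compared.

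VEGFA is a secreted growth factor made in BAT largely by the adipocytes. It binds the receptor tyrosine kinases VEGFR2, encoded by Kdr, and VEGFR1, encoded by Flt1, on endothelial cells. VEGFR2 carries most of the signal for endothelial growth and survival, and VEGFR1 binds VEGFA tightly with weak signalling of its own, so that it acts in part as a trap. The angiopoietins act through TIE2, encoded by Tek, with TIE1 as its partner, and steady the mature vessel. BAT has a dense capillary bed, which brings fuel and oxygen and carries heat away, and VEGFA is known for its part in keeping that bed.

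Each mouse gave 1 library, and total estimated counts (reads assigned to transcripts by Kallisto) ranged from 24698337 to 31558111 in ATF4 BKO mice and from 30996438 to 32452751 in WT mice. Brown adipocyte markers were abundant in every library, with a summed level of 29170 to 33870 transcripts-per-million (TPM) over the 14 genes listed. Atf4 had 32.6, 52.6 and 23.5 counts-per-million (CPM) in ATF4 BKO replicates 1, 2 and 3 and 285.7 and 226.4 in WT replicates 1 and 2, so the targeted gene was lower in each ATF4 BKO library, as labelled. The log2 fold change of Atf4 was -2.82 (SE 0.34), which did not pass in edgeR (adjusted p = 0.671) and passed in DESeq2 (adjusted p = 9.717e-12). ATF4 BKO replicate 1 stood apart from its label, with 4598 counts of Xist, an RNA of the female inactive X chromosome, against at most 7 in the other libraries. Skeletal muscle markers also separated the groups, with 21 of the 22 listed lower in all ATF4 BKO libraries than in both WT libraries. Over all genes tested, the share in that position was 10.6%. Their mean log2 CPM was -0.88, 0.74 and -1.35 in ATF4 BKO replicates 1 to 3, 2.20 in WT replicate 1 and 6.36 in WT replicate 2. The part of muscle RNA in the differences described here was not tested beyond a fit with this mean as a covariate. That fit cannot separate muscle level from genotype, since the mean was higher in both WT libraries than in any ATF4 BKO library. The labels do not tie the mice to litters or cages, and p-values measure only the spread between these 5 mice.

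The sequences of the regions from which 4 of these genes start are shown because Flt1, Eng and Tek were among the endothelial genes whose groups did not overlap, while the groups overlapped for Vegfa. Each is the stretch of 250 bases that ends just before the RefSeq transcript start in GRCm38.p6, written 5′ to 3′ on the strand of the gene. RefSeq promoter windows matched 7 of the 10 genes, that is, all but Cdh5, Pecam1 and Vwf. Capitals mark matches on either strand to the 4 motifs searched, which were TGACGTCA (the cyclic AMP response element), TGATGCAA (an element of C/EBP-ATF type, the kind that ATF4 binds with a C/EBP partner), ACGTG (the core of the hypoxia response element) and GGAAG (the core of ETS sites, which recur in endothelial genes).
Flt1, chr5:147726012-147726261, minus strand: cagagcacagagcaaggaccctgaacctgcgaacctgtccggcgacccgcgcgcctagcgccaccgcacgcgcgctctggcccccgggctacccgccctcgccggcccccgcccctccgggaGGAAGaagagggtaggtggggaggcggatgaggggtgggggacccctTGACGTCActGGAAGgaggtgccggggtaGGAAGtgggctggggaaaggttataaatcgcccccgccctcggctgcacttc
Eng, chr2:32646345-32646594, plus strand: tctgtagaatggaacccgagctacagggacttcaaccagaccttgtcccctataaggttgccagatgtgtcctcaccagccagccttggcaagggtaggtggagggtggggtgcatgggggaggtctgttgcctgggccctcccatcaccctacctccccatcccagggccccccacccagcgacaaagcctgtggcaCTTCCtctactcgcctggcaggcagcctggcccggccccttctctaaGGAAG
Tek, chr4:94739039-94739288, plus strand: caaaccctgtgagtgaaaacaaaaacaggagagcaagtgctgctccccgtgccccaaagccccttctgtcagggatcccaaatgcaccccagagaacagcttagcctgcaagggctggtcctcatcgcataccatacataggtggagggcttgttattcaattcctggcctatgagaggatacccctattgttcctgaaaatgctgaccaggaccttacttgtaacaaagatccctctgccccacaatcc
Vegfa, chr17:46032378-46032627, minus strand: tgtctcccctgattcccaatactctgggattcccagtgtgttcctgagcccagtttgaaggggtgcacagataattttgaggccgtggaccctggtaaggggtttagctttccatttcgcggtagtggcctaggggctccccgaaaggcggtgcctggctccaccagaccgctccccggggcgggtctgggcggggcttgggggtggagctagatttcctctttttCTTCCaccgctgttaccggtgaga

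Of the 8 windows found for the 7 genes (Vegfa has 2 starts), Flt1 alone held TGACGTCA, which is in 1.55% of the 32851 windows of the same length in the RefSeq table. GGAAG was at 6 places in the Tie1 window, at 3 in Flt1, at 2 in Eng and Emcn, at 1 in Kdr and in each Vegfa window and at none in Tek, against 64.1% of all windows with at least 1. TGATGCAA, found in 0.791% of all windows, was in none of the 8, and ACGTG, found in 16.6%, was in the window of the second Vegfa start only. These matches describe letters and show neither binding nor a cause of any difference.

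The order of the genes by level was set on TPM, which divides counts by transcript length and makes genes comparable. Vegfa stood highest at 421.5 TPM ± 27.0 (SD over the 5 mice). Eng followed at 116.7 ± 20.5 and then Cdh5 at 83.2 ± 14.5, Pecam1 at 77.9 ± 12.6, Kdr at 64.4 ± 13.7 and Emcn at 54.0 ± 5.14. Flt1 (33.4 ± 6.93) and Tie1 (33.2 ± 5.27) were level with each other, and Vwf (14.8 ± 3.08) and Tek (14.7 ± 2.22) were lowest. Neighbours in this order overlapped from mouse to mouse except at 3 steps, from Vegfa to Eng, from Emcn to Flt1 and from Tie1 to Vwf. Short retained-intron transcripts held 58.1% to 62.5% of Vegfa TPM and 18.1% to 19.9% of its counts. Over protein-coding transcripts alone, Vegfa had 166.2 TPM ± 15.3 and Eng 107.4 ± 18.1, still without overlap, and Vwf was below Tek at 4.87 ± 2.34 against 14.6 ± 2.27.

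Between the groups, differences are given in CPM after TMM scaling, a correction for library composition, and tested with edgeR's quasi-likelihood test on the counts with Benjamini-Hochberg adjustment over 16450 genes. Each of the 9 endothelial genes had a log2 fold change above 0 (ATF4 BKO over WT), from 0.04 for Emcn to 0.72 for Vwf with a median of 0.40. Over all genes tested the median was 0.01, and 51.2% of genes were above 0. Pecam1, Tek, Flt1, Tie1 and Eng were higher in all 3 ATF4 BKO libraries than in both WT libraries, 5 of the 9, against 8.95% of all genes tested. None of the 9 and not Vegfa passed the adjusted threshold of 0.05 in edgeR (0.00608% of all genes did, 1 gene), with the lowest adjusted p at 0.911. DESeq2 called none of the 10 either (0.736% of all genes, lowest adjusted p 0.303 for Eng). Without adjustment, 4 of the 9 were under 0.05 in edgeR and higher in ATF4 BKO, against 1.81% of all genes in that direction and 5.23% in either, and 5 of the 10 in DESeq2, against 5.79% of all genes in either direction. With 3 mice against 2, an exact one-sided permutation test of a single gene cannot go below 0.1, since there are 10 ways to split the 5 mice. In bulk tissue, a change in the number of cells of a type and a change in RNA per cell cannot be told apart.

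The 5 genes depend on how libraries are set to a common scale. On median-of-ratios size factors the count of endothelial genes with all ATF4 BKO libraries above both WT libraries was again 5 of 9 (9.14% of all genes). With counts scaled to the library total alone it was 1 of 9, Eng (4.0% of all genes), and on TPM it was 0 of 9 (3.02% of all genes). On these last 2 scales the median of all genes itself moved below 0, to -0.10 on library totals and -0.17 on TPM as log2 ratios of group means. The endothelial median stayed above it, at 0.30 and 0.16, with 8 of the 9 above 0 and Emcn below. Leaving out ATF4 BKO replicate 1 gave 7 of 9 (16.3% of all genes), and leaving out WT replicate 2, the library rich in muscle RNA, gave 7 of 9 (28.4%). When the fit included the mean muscle marker value as a term, the endothelial median was 0.61 and Kdr was below 0. Muscle level followed genotype in these libraries, so this fit does not give a difference freed of muscle RNA.

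**Figure D1:**
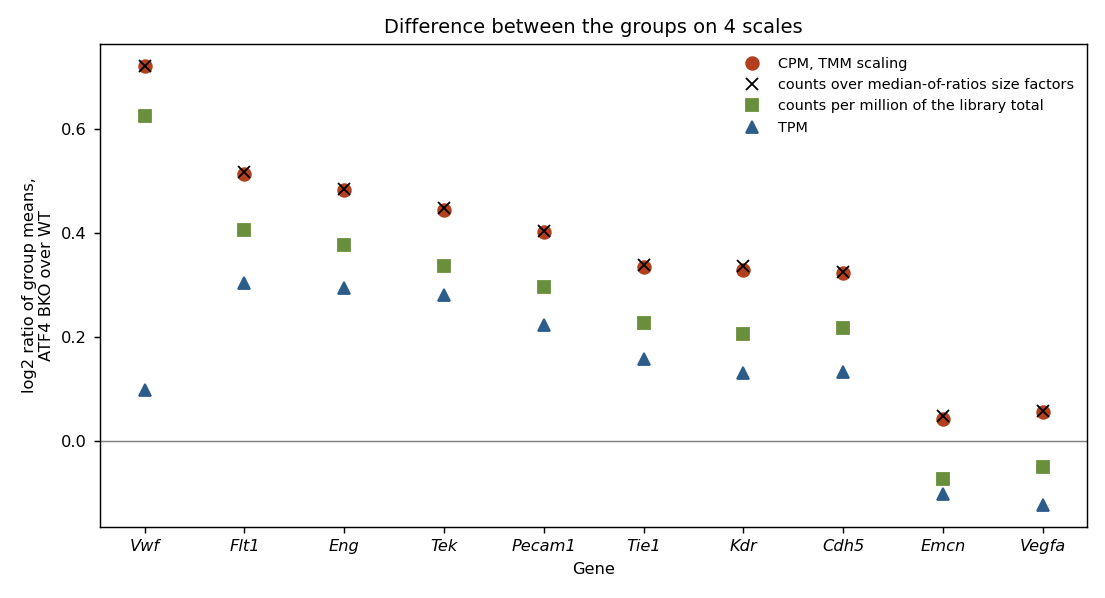
Difference between the groups (log2 ratio of the ATF4 BKO mean to the WT mean, y axis) for each gene (x axis) on 4 scales. The 9 endothelial genes lie above Vegfa on TMM-scaled counts except Emcn, every gene lies lower on library totals and TPM, and Vwf drops the most, from 0.72 to 0.10.

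Among the VEGF receptors, Flt1 had 176.6, 204.6 and 257.5 CPM in ATF4 BKO replicates 1, 2 and 3, and 139.4 and 158.9 in WT replicates 1 and 2. The lowest ATF4 BKO library thus lay above the higher WT library, and the fold difference was 1.43 (log2 0.51, SE 0.19). Its adjusted p in edgeR was 0.911 and its p before adjustment was 0.0381. Kdr, the main signalling receptor, had 385.5, 226.0 and 446.3 CPM in ATF4 BKO and 275.0 and 286.5 in WT. ATF4 BKO replicate 2 was lowest of all and the other two ATF4 BKO libraries highest, so the groups overlapped and the log2 fold change of 0.33 (SE 0.29) was close to its own error. Within the libraries that share the first of the 2 sample-name prefixes (ATF4 BKO replicates 1 and 2 with WT replicate 1) the log2 ratio of Kdr was 0.15, and within the second (ATF4 BKO replicate 3 with WT replicate 2) it was 0.64. The meaning of the prefixes is not given in the sources used here.

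The angiopoietin receptor Tek had 54.7, 59.9 and 67.2 CPM in ATF4 BKO and 41.0 and 48.0 in WT. All ATF4 BKO values lay above both WT values, with a log2 fold change of 0.45 (SE 0.15) and a p of 0.0233 before adjustment in edgeR. Its partner Tie1 had 112.3, 122.0 and 128.5 CPM in ATF4 BKO and 79.9 and 111.8 in WT. For Tie1 the groups were apart by a narrow gap between ATF4 BKO replicate 1 and WT replicate 2, and the log2 fold change was 0.34 (SE 0.18). Eng encodes endoglin, a co-receptor of the TGF-β family on endothelial cells. Eng had 255.7, 291.3 and 321.4 CPM in ATF4 BKO and 195.0 and 219.0 in WT. The groups were well apart, and the log2 fold change of 0.48 (SE 0.16) had the lowest p of the 10 genes before adjustment in edgeR, 0.0208. The exons of Eng overlap those of Fpgs on the opposite strand. The kit kept strand, and whether the counting used it is not given in the sources used here, so reads of the 2 genes may not be fully separated.

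Of the junction and surface markers, Pecam1 (CD31) had 202.5, 237.4 and 249.5 CPM in ATF4 BKO and 156.5 and 191.3 in WT. The groups did not overlap, and the log2 fold change was 0.40 (SE 0.16) with a p of 0.0487 before adjustment in edgeR. Cdh5, the cadherin of endothelial junctions, had 248.1, 303.6 and 335.4 CPM in ATF4 BKO and 208.7 and 264.1 in WT. Here ATF4 BKO replicate 1 lay below WT replicate 2, and the log2 fold change was 0.32 (SE 0.19). Emcn, a sialomucin of capillaries and veins, had 63.4, 46.9 and 58.0 CPM in ATF4 BKO and 50.1 and 58.7 in WT. The 2 groups covered the same range, with a log2 fold change of 0.04 (SE 0.17) that was below 0 on library totals and on TPM.

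Vwf encodes the large clotting glycoprotein stored in endothelial cells. Vwf had 36.3, 67.3 and 70.2 CPM in ATF4 BKO and 32.6 and 37.7 in WT. ATF4 BKO replicates 2 and 3 were far above the WT pair while replicate 1 lay between the 2 WT libraries. The log2 fold change was therefore at once the highest of the 10 genes, 0.72, and the one with the widest error (SE 0.30). Vwf also had the largest gap between scales, since the log2 ratio of its means was 0.72 in CPM and 0.10 in TPM.

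Vegfa had 517.5, 528.2 and 546.3 CPM in ATF4 BKO and 523.5 and 497.8 in WT. The values of all 5 libraries lay close together and the groups overlapped. The log2 fold change was 0.06 (SE 0.13) with an adjusted p of 0.975 in edgeR, and it lay between 0.01 and 0.11 when each library was left out in turn. On TPM, Vegfa had 378.0, 427.9 and 415.3 in ATF4 BKO and 443.3 and 443.0 in WT, so on that scale each ATF4 BKO library lay below both WT libraries, as did 24.9% of all genes tested. Over its protein-coding transcripts alone, Vegfa had 144.8, 179.4 and 155.9 TPM in ATF4 BKO and 172.6 and 178.6 in WT, and the groups overlapped. The sign of the small Vegfa difference thus followed the scale, with log2 ratios of 0.06 in TMM-scaled CPM, -0.05 on library totals and -0.12 on TPM.

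**Figure D2:**
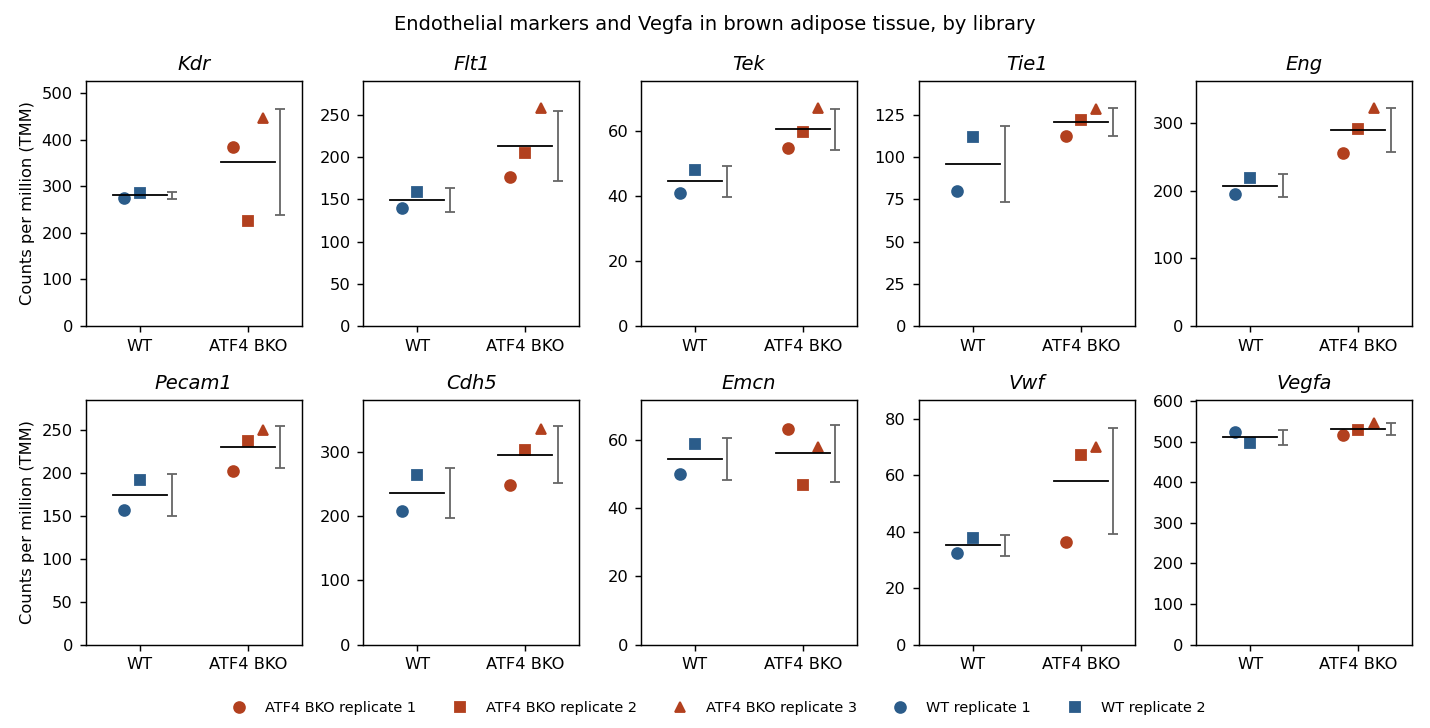
CPM after TMM scaling (y axis, from 0) of each of the 10 genes in the 2 WT and 3 ATF4 BKO libraries (x axis), with the group mean as a black line and the SD as a grey bar. Flt1, Tek, Tie1, Eng and Pecam1 show no overlap, ATF4 BKO replicate 2 is low for Kdr and Emcn, replicate 1 is low for Vwf, and the 5 Vegfa points lie between 497.8 and 546.3.

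Set against the endothelial genes of the same library, a measure in which library scaling cancels, Vegfa exceeded their mean by 1.97, 1.90 and 1.70 on the log2 CPM scale in ATF4 BKO and by 2.34 and 2.03 in WT. All 3 ATF4 BKO values were thus below both WT values, with a difference between the group means of -0.33. This ratio was chosen after the values were seen. The same position was held by 41.4% of all genes tested when they were set against the same mean, so it was not particular to Vegfa. On log2(TPM + 0.1) the difference was -0.29, and 33.1% of all genes held that position.

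The 9 endothelial genes did not all follow one profile. Tek was closest to the mean of the other 8, with a root mean square difference of 0.04 on the log2 CPM scale after centring each over the 5 libraries. Pecam1 (0.07), Eng (0.07), Cdh5 (0.09), Flt1 (0.10) and Tie1 (0.11) were also close. Emcn (0.28), Vwf (0.33) and Kdr (0.34) departed most. Kdr was lower than the others by 0.65 in ATF4 BKO replicate 2, written as a centred log2 ratio of -0.65, and was above them in replicates 1 and 3 (0.32 and 0.17). Emcn was at -0.37 and -0.32 against the others in ATF4 BKO replicates 2 and 3 and at 0.22 in replicate 1. Vwf was at -0.40 in ATF4 BKO replicate 1 and at 0.50 and 0.28 in replicates 2 and 3. Vwf and Kdr thus departed in opposite directions in ATF4 BKO replicates 1 and 2.

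The 5 genes of the whole set whose profile over the 5 libraries was nearest to the endothelial mean were Ushbp1 (root mean square difference 0.02), Dock6 (0.02), Cyyr1 (0.03), Ggn (0.03) and Gm26631 (0.04), against a median of 0.34 for all other genes. Ushbp1 is also on the list of other endothelial markers. Ggn rests on 17 to 30 counts per library. Nearest to Vegfa were Klhdc3 (0.01), Lrwd1 (0.01), Zc3hc1 (0.02), Gorasp2 (0.02) and Fbxo25 (0.02), against a median of 0.24. These had log2 fold changes from 0.02 to 0.07. That they were level across the libraries, like Vegfa, follows from their choice by profile.

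The levels were also read from single transcripts, since Flt1, Vwf and Vegfa each have products that differ in function. Flt1-202 encodes the full receptor of 1333 codons and Flt1-203 a shorter product of 688 codons, which corresponds to the soluble receptor that lacks the membrane and kinase parts and binds VEGFA outside the cell. Flt1-203 has 4004 words of 31 bases found in no other transcript, so its reads can be told from those of Flt1-202. Flt1-203 had 32.5, 45.9 and 44.0 CPM in ATF4 BKO and 29.9 and 29.1 in WT, and Flt1-202 had 143.8, 158.5 and 212.9 in ATF4 BKO and 108.9 and 129.3 in WT. In CPM both forms were higher in each ATF4 BKO library than in either WT library, and on TPM the groups overlapped for both. The share of Flt1 counts held by Flt1-203 was 18.4%, 22.4% and 17.1% in ATF4 BKO and 21.5% and 18.3% in WT, which overlapped, with a difference of -0.59 percentage points.

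For Vwf, the full-length Vwf-203 (2813 codons) had 22.6, 53.2 and 57.9 CPM in ATF4 BKO and 21.4 and 24.3 in WT. Vwf-210, annotated as a target of nonsense-mediated decay, had 12.6, 12.5 and 10.3 CPM in ATF4 BKO and 9.66 and 11.4 in WT. The high Vwf counts of ATF4 BKO replicates 2 and 3 therefore sat in the full-length transcript, and the groups overlapped for Vwf-210. A transcript of 456 bases, Vwf-209, held 1.45% to 3.01% of Vwf counts and 23.7% to 36.2% of Vwf TPM, since TPM gives weight to short transcripts. The 2 transcripts with the highest mean CPM were taken for each of these genes, and Vwf-209 was picked after its values were seen.

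Vegfa-202 (368 codons, with an extended start) and Vegfa-201 (146 codons) held most Vegfa counts. They differ in exon 1, which has 1079 bases in Vegfa-202 and 525 in Vegfa-201 and holds the extended start, and by an exon of 132 bases (44 codons) that is present in Vegfa-202 only. The latter encodes part of the stretch that binds heparin and neuropilins, which keeps the longer protein near cells while the shorter one diffuses. This exon, the number 6 of Vegfa-202, is at chr17:46020991-46021122 in GRCm38 and is shown because it is the difference between the 2 forms that lies after the usual start, without capitals and in the sense of the transcript.
Vegfa-202 exon 6: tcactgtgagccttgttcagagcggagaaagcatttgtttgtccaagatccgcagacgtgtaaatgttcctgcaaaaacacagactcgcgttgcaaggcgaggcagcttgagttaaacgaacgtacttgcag
Vegfa-202 held 54.0%, 64.5% and 58.7% of Vegfa counts in ATF4 BKO and 64.1% and 59.0% in WT. Vegfa-201 held 26.5%, 16.6% and 21.3% in ATF4 BKO and 16.0% and 22.3% in WT. The groups overlapped for both forms, and the share of Vegfa-201 differed by 2.32 percentage points. Neither has a word of 31 bases of its own, so Kallisto inferred this split, and Vegfa-207 (392 codons) was listed at 0 in all 5 libraries.

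**Figure D3:**
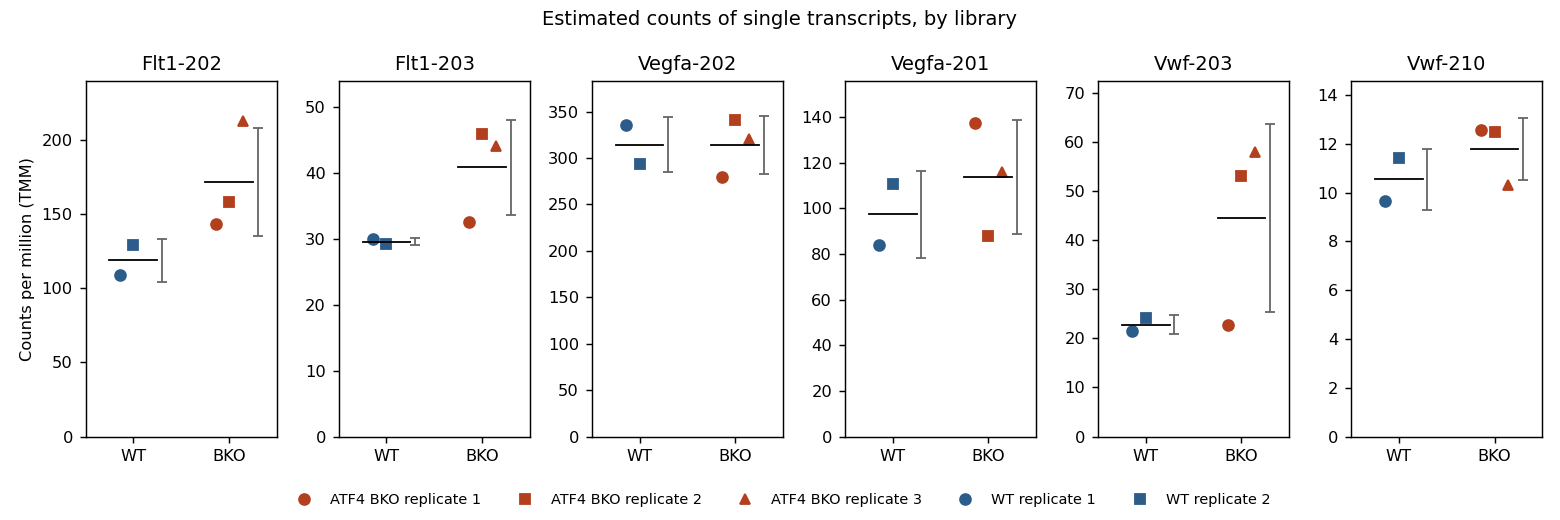
CPM (y axis, from 0) of 6 single transcripts in the 2 WT and 3 ATF4 BKO (BKO) libraries (x axis), with group means as black lines and SDs as grey bars. Both Flt1 forms are higher in each ATF4 BKO library than in either WT library, Vwf-203 separates ATF4 BKO replicates 2 and 3 from the rest, and the Vegfa forms and Vwf-210 overlap.

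Other vascular genes were described by lists. Over all genes tested, each ATF4 BKO library lay above both WT libraries for 8.95% and below both for 10.6%, 51.2% had log2 fold changes above 0, and 5.23% had a p under 0.05 before adjustment in edgeR. Of 30 other endothelial markers, all 30 had log2 fold changes above 0, with a median of 0.38 and a range from 0.08 to 0.72. In 12 of the 30 (40.0%, against 8.95% of all genes), each ATF4 BKO library lay above both WT libraries. On library totals and on TPM this count was 3 of 30 (against 4.0% and 3.02% of all genes), and 27 and 26 of the 30 had the higher mean in ATF4 BKO. None was called by edgeR or DESeq2, and 6 had a p under 0.05 before adjustment in edgeR. Those with the lowest p were Sox7 (log2 0.47), Ushbp1 (0.41), Sox18 (0.44) and Robo4 (0.39), of which Sox7 and Sox18 encode transcription factors of vessel formation and Robo4 a guidance receptor of endothelial cells. Sox7 had 29.2, 23.4 and 24.7 CPM in ATF4 BKO and 18.0 and 19.3 in WT, so the 2 groups were apart.

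Genes that mark arterial, venous, capillary and lymphatic endothelium gave 18 tested genes with log2 fold changes above 0 in all 18 and a median of 0.37. In 3 of the 18 (8.95% of all genes) each ATF4 BKO library lay above both WT libraries, namely Ephb4, Efnb2 and Nr2f2. Ephb4, a receptor of veins, had 66.3, 80.1 and 74.1 CPM in ATF4 BKO and 50.0 and 60.3 in WT. Its ligand Efnb2, a marker of arteries, had 26.2, 19.9 and 36.7 in ATF4 BKO and 15.2 and 19.7 in WT. Nr2f2, a regulator of venous identity, had 11.3, 11.7 and 12.3 in ATF4 BKO and 8.39 and 9.74 in WT. Arterial and venous genes thus both stood among the 3, and on TPM the groups overlapped for all 3. The gap of Efnb2 in CPM was narrow. The groups overlapped for the other arterial genes listed, Gja4, Gja5, Bmx and Sema3g. Car4, of capillaries, overlapped between the groups, with a log2 fold change of 0.67 (SE 0.33). Rgcc, also on this list, was at 0.02 (SE 0.26), and the groups overlapped for it and for every remaining gene of the list.

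Mural cells, the pericytes and smooth muscle that wrap vessels, gave 13 of 15 markers above 0 with a median of 0.29, and in 5 of the 15 each ATF4 BKO library lay above both WT libraries (8.95% of all genes). Kcnj8, a potassium channel of pericytes, had 33.7, 34.1 and 38.7 CPM in ATF4 BKO and 22.6 and 26.8 in WT, a log2 fold change of 0.52 (SE 0.15). Myh11 (0.39), the smooth muscle myosin, Higd1b (0.50) and Pdgfrb (0.29), the PDGF receptor of pericytes, came next by p. On TPM the groups stayed apart for Kcnj8 and Higd1b and overlapped for Myh11 and Pdgfrb. Macrophage markers (11 tested, median 0.41) and fibroblast markers (12 tested, median 0.40) were above 0 in all cases too, and in none of them were the groups apart. The summed TPM of the macrophage list ranged from 457.2 to 1396 in ATF4 BKO and from 217.6 to 1243 in WT, and that of the fibroblast list from 422.6 to 1049 and from 470.3 to 848.3. Red blood cell and platelet markers had 3 of 10 above 0, with a median of -0.52, and brown adipocyte markers 10 of 14, with a median of 0.13. The endothelial difference was thus of the size seen for several non-adipocyte cell types, and the part of tissue makeup in it was not tested. The 9 endothelial genes summed to 448.0, 530.4 and 568.6 TPM in ATF4 BKO and to 405.6 and 508.2 in WT, which overlapped.

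**Figure D4:**
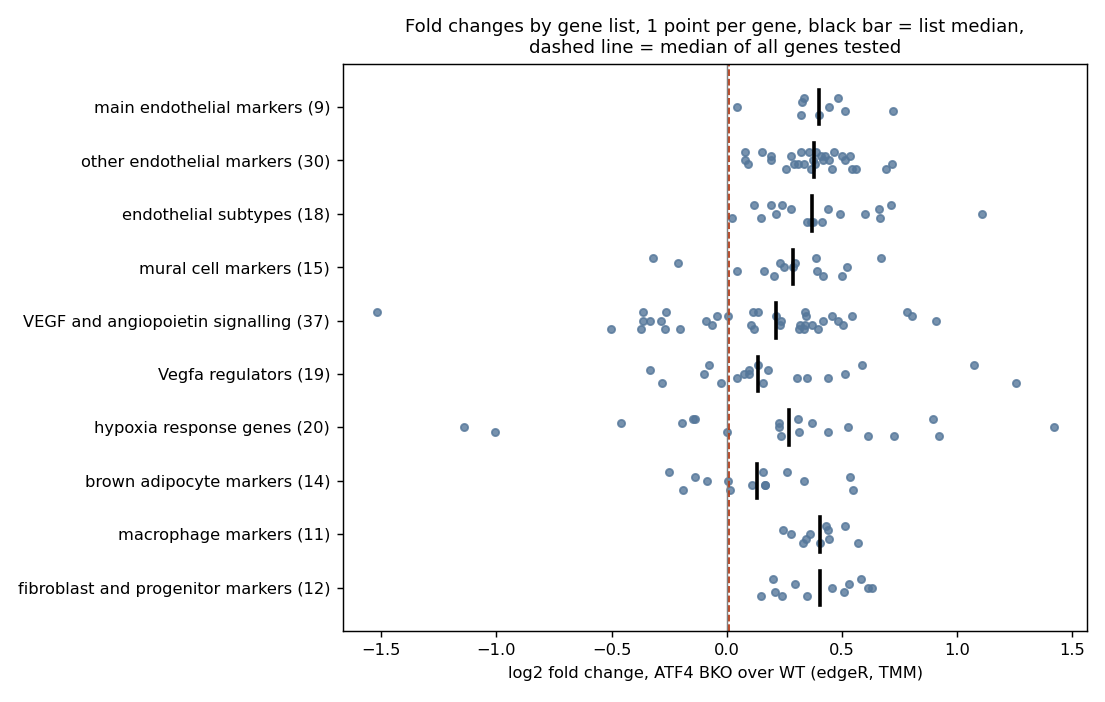
log2 fold change (ATF4 BKO over WT, x axis) of each tested gene on 10 gene lists (y axis, number of genes in brackets), with list medians as black bars and the median of all 16450 genes as a dashed line. Medians of the endothelial, mural, macrophage and fibroblast lists lie from 0.29 to 0.41, and the signalling, Vegfa regulator and hypoxia lists spread to both sides of 0.

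The signalling list, beside the 10 genes, held VEGF and angiopoietin family genes together with Notch, FGF, PDGF, BMP and other genes of vessel growth. Its genes lay on both sides of 0, with 24 of 37 above 0 and a median of 0.22. In 7 of the 37 each ATF4 BKO library lay above both WT libraries (8.95% of all genes) and in 2 below (10.6%), and 2 had a p under 0.05 before adjustment in edgeR, near the 5.23% of all genes. The list's median was below 0 on TPM. Of the other VEGF family ligands, Vegfb had 61.4, 61.2 and 85.6 CPM in ATF4 BKO and 68.7 and 74.3 in WT, a log2 fold change of -0.04 (SE 0.18). Vegfc, the lymphatic ligand, was at -0.27 (SE 0.33), Vegfd at -0.09 (SE 0.42) and Pgf at 0.23 (SE 0.44), all 3 on low counts and with overlapping groups. Flt4, the receptor of Vegfc, was at 0.22 (SE 0.18), and the co-receptors Nrp1 and Nrp2 were at 0.01 (SE 0.20) and -0.20 (SE 0.19). The groups overlapped for all 3 of these receptors.

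The 2 angiopoietins lay on opposite sides. Angpt1, the TIE2 agonist, had 5.34, 4.70 and 4.58 CPM in ATF4 BKO and 6.71 and 5.81 in WT, all below, with a log2 fold change of -0.36 (SE 0.21). Angpt2, which can oppose it, had 2.87, 2.92 and 2.83 CPM in ATF4 BKO and 2.50 and 2.04 in WT, all above, with a log2 fold change of 0.34 (SE 0.25) that was below 0 on TPM. Neither passed the adjusted threshold, and both rest on low counts, from 121 to 212 per library for Angpt1 and from 65 to 84 for Angpt2.

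Hey1, a Notch target, had 14.7, 11.3 and 12.7 CPM in ATF4 BKO and 6.33 and 7.38 in WT. The groups were well apart, the log2 fold change was 0.91 (SE 0.20), and it passed in DESeq2 (adjusted p = 0.0315) and not in edgeR (adjusted p = 0.704). Of the other Notch targets listed, Hes1 was at -0.37, Nrarp at -0.06 and Hey2 at 0.12, all 3 with overlapping groups. Pdgfb, by which endothelial cells recruit pericytes, had 75.1, 77.0 and 75.0 CPM in ATF4 BKO and 60.3 and 59.3 in WT, a log2 fold change of 0.34 (SE 0.11). The BMP receptor Acvrl1 (0.40) did not overlap between the groups in CPM either, though it did on TPM, and Notch1 (0.48) overlapped in CPM.

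Regulators of Vegfa had 14 of 19 above 0 with a median of 0.14. In 2 of the 19 each ATF4 BKO library lay above both WT libraries (8.95% of all genes) and in 1 below (10.6%). Hif1a, which encodes a hypoxia-inducible factor, had 65.9, 64.0 and 55.3 CPM in ATF4 BKO and 78.0 and 77.6 in WT. Each ATF4 BKO library lay below both WT libraries, with a log2 fold change of -0.33 (SE 0.13) and a p of 0.039 before adjustment in edgeR. Epas1, which encodes another such factor, had 727.7, 675.2 and 908.9 CPM in ATF4 BKO and 776.8 and 851.1 in WT. The groups overlapped for Epas1, with a log2 fold change of -0.08 (SE 0.18). Nr4a3 was at 1.07 (SE 0.38) on 2.65, 5.59 and 3.60 CPM in ATF4 BKO and 1.77 and 1.98 in WT. Zfp36 and Zfp36l1, which speed the decay of Vegfa and other mRNAs, were at 0.59 and 0.30, and the groups overlapped for the former. Ppargc1a, a coactivator known to induce Vegfa, had 67.6, 180.8 and 61.4 CPM in ATF4 BKO and 51.4 and 110.9 in WT, which overlapped.

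Genes of the hypoxia response had 14 of 20 above 0 with a median of 0.27, in 7 of the 20 each ATF4 BKO library above both WT libraries (8.95% of all genes) and in 1 below (10.6%). Bnip3, which marks mitochondria for removal, had 260.9, 273.2 and 292.9 CPM in ATF4 BKO and 133.5 and 162.5 in WT, a fold difference of 1.86 that passed in DESeq2 (adjusted p = 5.656e-05) and not in edgeR (adjusted p = 0.671). Its relative Bnip3l was at 0.31 (SE 0.12) and Mxi1 at 0.53 (SE 0.21), both with the groups apart in CPM and overlapping on TPM. Ero1l, the oxidase of protein folding in the endoplasmic reticulum, lay on the other side, with 41.6, 37.9 and 40.0 CPM in ATF4 BKO and 118.8 and 56.9 in WT and a log2 fold change of -1.14 (SE 0.29). Ero1l rested on WT replicate 1, as the log2 fold change was -0.50 without that library and -1.59 without WT replicate 2, and in edgeR with the muscle marker mean as a term it was -2.05 (adjusted p = 0.043). Members of this list thus stood on both sides of WT while Vegfa, itself a hypoxia target, overlapped.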

How the data were processed

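RNA from BAT of 3 ATF4 BKO and 2 WT mice was sequenced by the authors from stranded mRNA libraries. The authors deposited, per mouse, estimated counts and TPM per transcript from Kallisto 0.45.0 with mm10, neither scaled between mice except that TPM sums to a fixed total, and the transcript set is not given in the sources used here. From these, 138191 of 141450 transcripts matched GENCODE M21, holding all but 1.16% to 1.29% of counts. Estimated counts were summed per gene, rounded and tested in edgeR 4.0.16 (R 4.3.3) with TMM factors and genotype as the only term, keeping genes that reached 10 counts in 2 libraries or more. DESeq2 1.42.0, the study's tool, and limma 3.58.1 on log2(TPM + 1) or log2(TPM + 0.1) were alternatives. Log2 CPM used a prior count of 2. The fits were run on simulated counts with the same dispersion for every gene and changes far larger than those of the 10 genes. That run therefore does not measure how well differences of the size seen here are found. Counting error at the lowest count of the 10 genes was at most 3.49% (823 counts). Groups came from the sample titles. Same-numbered mice were not treated as pairs, since the labels do not pair them. Correlations of their deviations from the group means were 0.05 and 0.20, which cannot settle pairing, as the deviations of 2 WT libraries mirror each other. The members and lists were chosen with earlier results of these data known. Named genes are the 10, Atf4, VEGF and angiopoietin family members, called genes or the 4 of lowest p per vascular list, and the 5 nearest profiles. Ppargc1a, Epas1, Rgcc, Vwf-209, the further arterial genes and Notch targets, and the genes given as other observations were chosen after their values were seen. Of each gene's words of 31 bases, at most 2.50% (Pecam1) occur in other genes. Ccl21a was left out because its name did not match a single gene.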

Additional observations from a re-analysis of the deposited data

Results flagged for a closer look

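ATF4 BKO replicate 1, labelled male, had 4598 counts of Xist, and the other 4 libraries had at most 7, a signal outside the comparisons made here. Its summed counts of Y-linked genes were 34, against at least 3284 in the others. Without this library, 8 of the 9 endothelial genes had log2 fold changes above 0 (Emcn did not) and 7 had both remaining ATF4 BKO libraries above both WT libraries (16.3% of all genes tested did).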

How the results depend on the processing

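None of the 10 genes was called under any of the 14 alternatives. The number of genes called in all was 1 and became 121 in DESeq2, 8 without the count filter, 0 and 2 in limma on log2(TPM + 1) and log2(TPM + 0.1), 0 to 23 leaving out 1 library at a time (23 without WT replicate 1), 0 with the sample-name prefix as a term and 219 with the muscle covariate. The replicate block, fitted without ATF4 BKO replicate 3, which has no partner, gave 0 called genes and a signalling-list median of 0.0717, and it changed no call of the 10 genes. The endothelial median of 0.40 became 0.1704 and 0.1757 in limma on the 2 TPM scales and 0.6105 with the muscle covariate, and that of the other endothelial markers 0.1826, 0.1875 and 0.6366. The signalling-list median of 0.22 became 0.1037 on library totals, -0.0524 and -0.1112 in limma on TPM, 0.105 with the muscle covariate and 0.0908 to 0.2367 with 1 library left out. Endothelial genes with all ATF4 BKO libraries above WT numbered 5 of 9 (8.95% of all genes tested). Leaving out 1 library gave 5 to 7, while the share of all genes rose too, to between 14.4% and 28.4%. On library totals the number was 1 (4.0% of all genes) and on TPM 0 (3.02%). The cause of these changes was not tested.

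Directions turned for 13 of 53 named genes, of which none was called in either direction. On library totals, Emcn was at -0.0731, Vegfa -0.0509, Nrp1 -0.1137, Klhdc3 -0.0364, Lrwd1 -0.0368, Zc3hc1 -0.0723, Gorasp2 -0.082 and Fbxo25 -0.0544. In limma on log2(TPM + 1) and log2(TPM + 0.1), Emcn was at -0.0967 and -0.0983, Vegfa at -0.1242 and -0.1245, Nrp1 at -0.1874 and -0.1903, Angpt2 at -0.2479 and -0.4218, Klhdc3 at -0.0993 and -0.1028, Zc3hc1 at -0.023 and -0.0264, Gorasp2 at -0.1521 and -0.1555, and Fbxo25 at -0.0477 and -0.0554. With the muscle covariate, Kdr was at -0.1096, Vegfa -0.0224, Vegfd 1.0845, Pgf -0.5258, Klhdc3 -0.0328, Lrwd1 -0.0277, Zc3hc1 -0.0416, Gorasp2 -0.0586 and Fbxo25 -0.008. With the replicate block, Vegfd was at 0.1055 and Nrp1 at -0.0597. Leaving out 1 library at a time, Emcn ranged from -0.0534 to 0.1744, Vegfb from -0.2197 to 0.0571, Nrp1 from -0.1124 to 0.1735, Vegfd from -0.4236 to 0.3365, Pgf from -0.1891 to 0.7922, Zc3hc1 from -0.0154 to 0.0825 and Gorasp2 from -0.0356 to 0.0832.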

Other observations

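In ATF4 BKO replicate 2, some genes of the vascular lists departed from their values in the other libraries, in both directions. These genes were chosen after their values were seen, and not all of them are endothelial markers. Kdr (226.0 CPM), Nrp1 (133.9), Nrp2 (112.1), Emcn (46.9), Dll4 (7.19), a Notch ligand, and Apln (1.42), which encodes a peptide, each had their lowest value there. The next lowest Apln value was 6.67. Gpihbp1 (188.1), which holds lipoprotein lipase on capillaries, Aqp1 (337.4), a water channel, Car4 (94.3) and Angptl4 (250.6), an inhibitor of lipoprotein lipase, each had their highest value in the same library.

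Thbs1, an inhibitor of angiogenesis, had 11.5, 39.7 and 12.2 CPM in ATF4 BKO and 102.9 and 18.5 in WT, and Slc2a1, a glucose transporter and hypoxia target, had 10.4, 20.3 and 16.0 in ATF4 BKO and 50.5 and 12.2 in WT. For both, WT replicate 1 stood above all others. Egln3, a prolyl hydroxylase that acts on hypoxia-inducible factors, had 48.8, 10.6 and 28.9 CPM in ATF4 BKO and 7.82 and 16.8 in WT.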
